A study of Mus musculus with 9 samples.

Results

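Sox proteins are transcription factors that bind DNA through a shared domain, the HMG box. The 6 Sox genes described here are Sox2, Sox4, Sox9, Sox11, Sox17 and Sox18, which were chosen by name and are 6 of the 18634 genes of the table. Male C57BL/6J mice of 9 to 11 weeks were kept under normal sleep (NS), under 12 h of sleep deprivation (SD) or under that deprivation with recovery sleep after it (RS), for which the labels give 12 h in one place and 24 h in another. All samples were collected at zeitgeber time 12, when the lights went off. Brainstem, cortex and hypothalamus were dissected, and the same region of 3 mice was pooled for each group. Cells freed with papain and depleted of myelin were sequenced as 9 single-cell libraries. Unique molecular identifiers (UMIs) were counted in 29571 cells. Only the brainstem NS library could be tied to its label, through the cell barcodes that the study lists with a cell type, and it is library 7 in the order of the table. The other 8 libraries carry a code that no label explains and are given by number alone, so no comparison between sleep groups or regions was made. Each library is 1 pool with no replicate, and therefore no difference here carries a test. Intervals cover counting error only.

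The 6 genes fall into 4 subgroups of the family. Sox2 (SoxB1) maintains neural stem cells and stays on in ependymal cells and astrocytes of the adult. Sox9 (SoxE) starts gliogenesis and marks astrocytes and ependymal cells of the adult brain. Sox4 and Sox11 (SoxC) act in newly formed neurons and in many progenitors, and Sox17 and Sox18 (SoxF) act in the endothelium, where Sox17 is tied to arteries and Sox18 to lymphatic and blood vessel formation.

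The coding sequences show how close the subgroups are, and the stretch printed is the part of the HMG box with the most bases in common. In GENCODE M21 on GRCm38, the build named for the deposited table, a window of 79 codons aligned without gaps in all 6 genes, and 108 of its 237 bases were identical in all of them. Over that window Sox4 and Sox11 shared 89.0% of bases and Sox17 and Sox18 shared 82.7%. The 13 pairs from different subgroups shared fewer, from 63.7% for Sox4 and Sox18 to 75.9% for Sox9 and Sox17. The 120 bases are given for 5 of the genes and are coding, read 5′ to 3′ on the strand of the gene, with the bases identical in all 6 genes in capitals.
Sox2: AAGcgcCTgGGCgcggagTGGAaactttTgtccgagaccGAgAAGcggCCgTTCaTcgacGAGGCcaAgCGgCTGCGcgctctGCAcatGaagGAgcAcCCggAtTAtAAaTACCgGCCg
Sox4: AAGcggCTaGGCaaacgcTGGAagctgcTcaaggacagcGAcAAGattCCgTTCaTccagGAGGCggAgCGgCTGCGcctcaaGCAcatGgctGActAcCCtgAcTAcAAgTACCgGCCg
Sox9: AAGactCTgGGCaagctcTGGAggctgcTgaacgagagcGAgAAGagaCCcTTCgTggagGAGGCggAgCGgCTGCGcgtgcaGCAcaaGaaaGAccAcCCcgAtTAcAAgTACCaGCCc
Sox11: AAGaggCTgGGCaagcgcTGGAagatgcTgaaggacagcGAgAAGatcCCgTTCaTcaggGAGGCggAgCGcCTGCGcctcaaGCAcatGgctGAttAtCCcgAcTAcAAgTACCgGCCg
Sox18: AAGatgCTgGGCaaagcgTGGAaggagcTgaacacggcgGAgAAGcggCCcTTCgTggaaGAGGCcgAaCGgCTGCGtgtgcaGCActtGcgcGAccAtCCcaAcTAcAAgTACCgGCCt
The stretch lies at chr3:34650638-34650757 on the plus strand for Sox2, at chr13:28952632-28952751 on the minus strand for Sox4 and at chr12:27342049-27342168 on the minus strand for Sox11, and each of these transcripts has a single exon. An intron interrupts it in Sox9 (chr11:112782993-112783905, plus strand) and Sox18 (chr2:181670887-181671191, minus strand). Sox2 lies inside Sox2ot, a long noncoding RNA gene on the same strand that has no row in the table, the end of Sox4 overlaps Gm26735 on the other strand, and Sox17 overlaps Gm37587 on the other strand. Whether reads of those genes entered the counts was not tested.

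The libraries held 2575 to 3916 cells and 1522766 to 5488950 UMIs each, with a median of 402 to 1055 UMIs per cell, and the mitochondrial share ran from 2.55% to 12.3%. Libraries 4, 5 and 6 stood apart, since pituitary hormone genes made up 30.3%, 30.03% and 37.9% of their UMIs and at most 0.00959% in the other 6. Of 29015 distinct barcodes 549 occurred in several libraries, and leaving those cells out moved 0 of 18 main values beyond its interval. Levels are counts per 1000000 UMIs (CPM), summed over the cells named, and are compared for one gene at a time. Cell types are those of the study's list, held here for 1999 cells of the brainstem NS library, or classes of clusters made from all cells without the Sox genes and named "-like" from markers (21 of 30 clusters, 14 classes).

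Sox9 was highest in ependymal cells and next in astrocytes, and it was low or at 0 in vascular and immune cells. In the brainstem NS library 102 of the 155 Sox9 UMIs of the listed cells lay in the 88 ependymocytes (EPC), at 599 CPM (95% Poisson interval 488 to 727). The 188 listed astrocytes reached 218 CPM (153 to 300.04), so that the EPC level was 2.75-fold higher (1.87 to 4.12). No Sox9 UMI was found in the 230 arterial smooth muscle cells (VSMCA), the 67 macrophages, the 55 glutamatergic neurons or the 19 hemoglobin-expressing vascular cells (HbVC), and 3 UMIs would be 9.74, 36.1, 57.2 and 68.2 CPM there. The 549 microglia held 1 Sox9 UMI (1.97 CPM) and the 573 endothelial cells held 9 (13.9 CPM). The highest vascular level was that of the 168 pericytes, which held 4 (27.0 CPM, 7.37 to 69.2). A Sox9 UMI was seen in 55.7% of EPC, in 17.0% of astrocytes and in 2.51% of the cells outside EPC. After each cell was thinned to 500 UMIs these shares were 19.3%, 11.4% and 1.43%.

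Sox2 followed Sox9 across the listed types. It was at 235 CPM in EPC (168 to 319.7), at 129 CPM in astrocytes (81.1 to 196) and at 4.63 CPM in endothelial cells (0.954 to 13.5), with 40 of its 68 UMIs in EPC and 22 in astrocytes. The intervals of EPC and astrocytes overlapped, although the ratio of 1.81 had an interval of 1.05 to 3.20. No Sox2 UMI was found in pericytes, macrophages, HbVC, glutamatergic neurons or listed oligodendrocytes. At 500 UMIs per cell, 9.09% of EPC and 5.95% of astrocytes kept a Sox2 UMI. On CPM + 10, Sox2 was 10.4-fold and Sox9 17.1-fold higher in EPC than in the other listed cells, and 12.5% of the 9483 genes with at least 20 UMIs were at least 2-fold higher there. In astrocytes they were 4.34-fold and 3.41-fold higher, against 10.7% of genes at 2-fold. None of the 5 members with at least 20 UMIs was 2-fold higher in pericytes (6.76% of genes), VSMCA (4.98%), macrophages (5.46%), HbVC (1.05%), glutamatergic neurons (12.9%) or Neuron Other cells (22.3%).

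**Figure D1:**
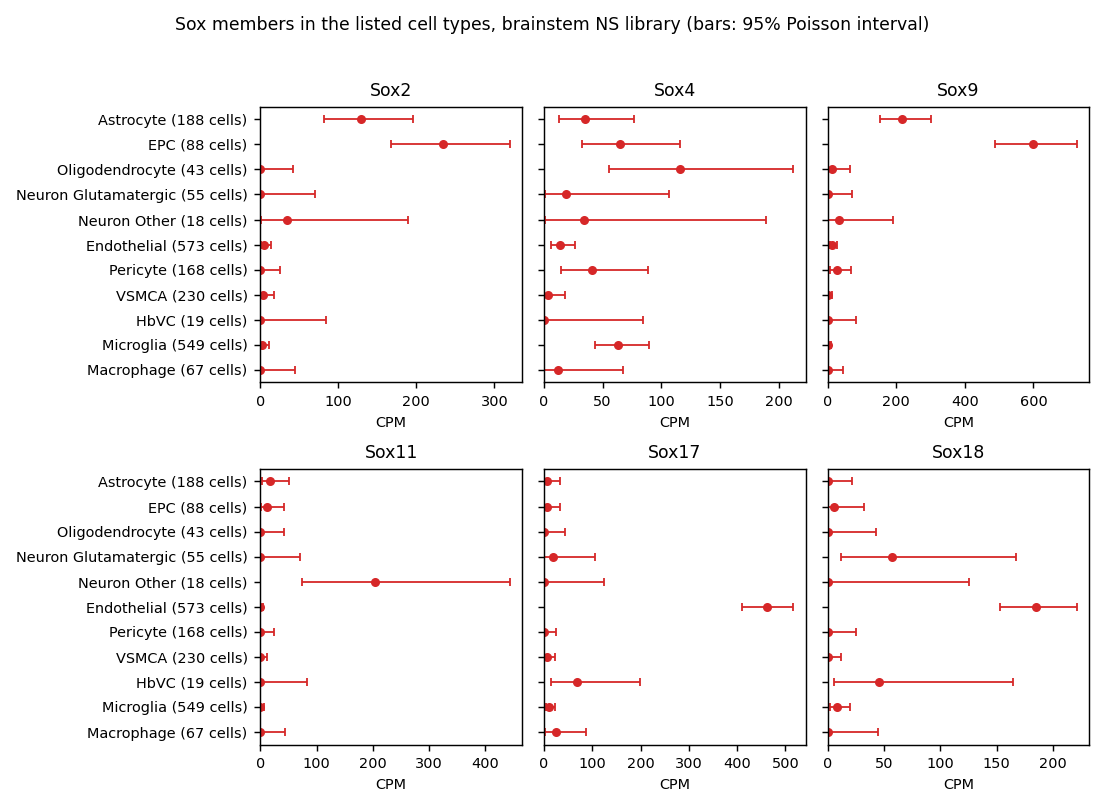
CPM (horizontal axis) of each Sox gene in the 11 listed cell types of the brainstem NS library, with 95% Poisson intervals. Sox2 and Sox9 peak in EPC and then astrocytes, Sox17 and Sox18 in endothelial cells, and the intervals of the small types are wide.

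The Sox2 level of EPC depended on which cells were taken. The EPC-like cells of the same library, 170 in number, had 442 CPM of Sox2 (379.9 to 511) against 235 CPM in the listed EPC. Among them, the 79 that are on the list had 265 CPM (188 to 362) and the 91 that are not had 542 CPM (456 to 638). The most Sox2 UMIs in one cell were 14 among the unlisted and 5 among the listed cells. The share with a Sox2 UMI at 500 UMIs per cell was 10.1% in the listed and 16.5% in the unlisted ones. For Sox9 the gap was smaller, at 610.4 CPM (491 to 750.3) in listed and 748 CPM (647 to 860) in unlisted EPC-like cells.

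Both genes kept this order in every library with at least 50 cells of both classes. Over all libraries, Sox9 stood at 711 CPM in 1569 EPC-like cells (681 to 743) and at 290.2 CPM in 4680 astrocyte-like cells (270.5 to 311), a ratio of 2.45 (2.26 to 2.66). The ratio ran from 1.85 to 2.70 in libraries 4, 5, 7, 8 and 9, with every interval above 1. Sox2 stood at 418 CPM in EPC-like cells (394 to 442) and 194 CPM in astrocyte-like cells (178 to 211), a ratio of 2.16 (1.95 to 2.39). Its ratio was above 1 in all 5 of those libraries and its interval in 4 of them, the exception being library 4 at 1.31 (0.816 to 2.18). The EPC-like cells were deeper, with a median of 1350 UMIs against 531, and at 500 UMIs per cell 27.2% of them and 12.7% of astrocyte-like cells had a Sox9 UMI, and 17.0% and 9.40% a Sox2 UMI. In endothelial-like cells, with a median of 763 UMIs, the thinned shares were 0.676% for Sox9 and 0.284% for Sox2. Against all other cells Sox2 and Sox9 were 7.82-fold and 10.02-fold higher in EPC-like cells on CPM + 10 (10.0% of 15739 genes reached 2-fold) and 2.63-fold and 2.62-fold higher in astrocyte-like cells (5.43%).

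Within EPC-like and astrocyte-like cells the intervals of the highest and lowest library overlapped for Sox9. In EPC-like cells Sox9 was lowest in library 5 at 631 CPM (523 to 754), had a median of 707 CPM over 6 libraries and was highest in library 9 at 739.8 CPM (689 to 793). In astrocyte-like cells it ran from 258 CPM in library 7 (201 to 327) to 392 CPM in library 4 (277 to 538), and the ratios of highest to lowest were 1.17 (0.967 to 1.43) and 1.52 (0.994 to 2.29). In tanycyte or pituicyte-like cells Sox9 in library 5 was 1.54-fold above library 6 (1.03 to 2.28), and in neuron-like cells, where it was low, library 9 at 35.9 CPM was 4.78-fold above library 3 at 7.50 CPM (1.54 to 12.7). Sox2 in EPC-like cells ran from 320.7 CPM in library 5 (245 to 412) to 456 CPM in library 8 (402 to 515), and in astrocyte-like cells from 128 CPM in library 5 (68.0 to 218) to 258 CPM in library 4 (167 to 381). The intervals overlapped in both classes, although the ratio in EPC-like cells was 1.42 with an interval of 1.07 to 1.91, and in astrocyte-like cells it was 2.02 (0.994 to 4.30). Astrocyte-like cells came mostly from different clusters in different libraries, the one led by Htra1 in libraries 1 and 2, by Fjx1 in library 3 and by Agt in libraries 4, 5, 7, 8 and 9. Of the neuron-like cells, 97.1% lay in the cluster led by Gad1 in library 9 and 62.8% in the one led by Nrgn in library 3. Over all libraries those clusters had 14.6 and 8.10 CPM of Sox9.

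**Figure D2:**
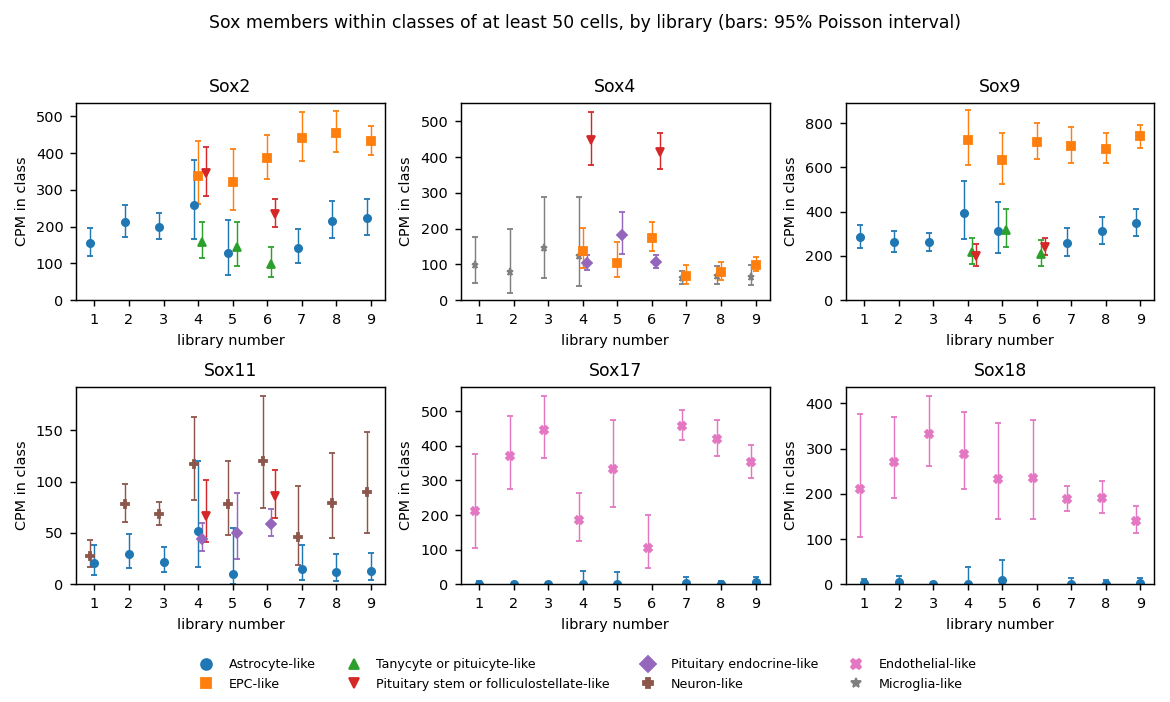
CPM of each Sox gene within classes of at least 50 cells (vertical axis) by library number (horizontal axis), with 95% Poisson intervals. EPC-like cells lie above astrocyte-like cells for Sox9 in each library that has both, and Sox17 in endothelial-like cells is lowest in libraries 4 and 6.

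Summed over all cells, by contrast, both genes differed between libraries. In library order 1 to 9, Sox9 was at 97.8, 80.7, 57.5, 81.0, 116, 104, 95.6, 164 and 239 CPM. Libraries 9 and 8 were the highest and their intervals did not overlap each other, while libraries 5, 6, 1, 7, 4 and 2 followed with each neighbour's interval overlapping the next. Library 9 was 4.16-fold above library 3 (3.59 to 4.85). Sox2 was at 53.8, 67.2, 43.3, 76.2, 62.2, 72.7, 53.3, 106 and 138 CPM in the same order, with library 9 at 3.18-fold the level of library 3 (2.67 to 3.81). Libraries 9 and 8 were again apart from each other and from the rest, and from library 4 downward all neighbours overlapped. The size of both ratios changed with the cells kept and their weights. In cells of at least 1000 UMIs they were 10.6 for Sox9 and 8.70 for Sox2, and as a mean of the CPM of single cells they were 1.88 and 1.48.

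The classes that held the UMIs differed too. EPC-like cells held 67.7% of the Sox9 UMIs of library 9 and 21.9% of its total UMIs, and library 3 had no EPC-like cell. In libraries 1, 2 and 3 astrocyte-like cells held 80.1% to 84.6% of the Sox9 UMIs and 77.7% to 84.1% of the Sox2 UMIs. In such sums fewer cells of a type and less RNA per cell cannot be told apart, and how much of the spread came from the cells sampled was not tested. The plot of CPM by library gives all 6 genes.

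**Figure D3:**
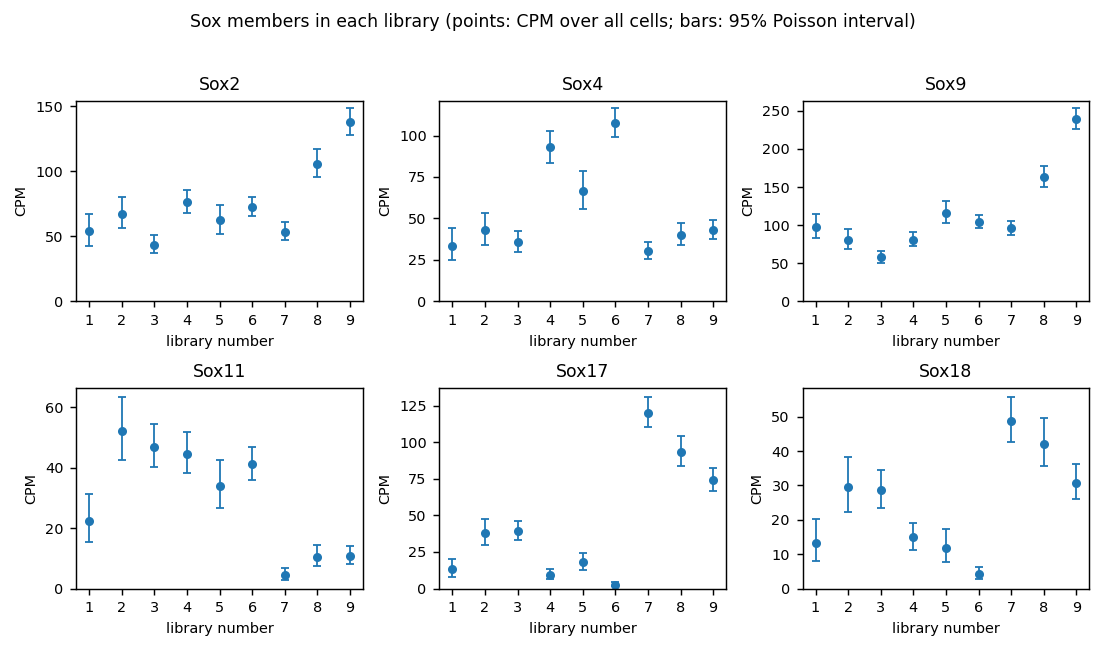
CPM over all cells (vertical axis) of each Sox gene in libraries 1 to 9 (horizontal axis), with 95% Poisson intervals. Sox2 and Sox9 are highest in library 9, Sox4 in library 6, Sox11 in library 2, and Sox17 and Sox18 in library 7.

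Whether Sox2 and Sox9 are found in the same cells was read at equal depth. Of the 392 EPC-like cells with a Sox9 UMI at 500 UMIs per cell, 18.4% (95% Clopper-Pearson interval 14.7% to 22.6%) also had a Sox2 UMI, against 16.5% (14.3% to 18.9%) of the 1050 without one. In astrocyte-like cells the shares were 10.6% (7.45% to 14.5%) of 321 and 9.23% (8.06% to 10.5%) of 2210. The intervals overlapped in both classes, so that a difference was not detectable at this depth. Of the listed EPC, 4 of 17 with a Sox9 UMI (23.5%, 6.81% to 49.9%) and 5.63% (1.56% to 13.8%) of the other 71 had one, and these intervals overlapped too. Without thinning the order in the listed EPC turned, at 12 of 49 cells (24.5%, 13.3% to 38.9%) and 33.3% (19.1% to 50.2%) of the other 39, again with overlapping intervals. Without thinning, 49.7% (46.2% to 53.2%) of the Sox9-positive and 28.4% (25.2% to 31.8%) of the Sox9-negative EPC-like cells had a Sox2 UMI. In astrocyte-like cells the unthinned shares were 13.8% (11.3% to 16.5%) and 9.77% (8.86% to 10.7%). Neither of these pairs of intervals overlapped, but depth was not equal there. Among all 823 EPC-like cells with a Sox9 UMI, 101 had at least 5 and the most in one cell was 19, and for Sox2 the most was 24.

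Choroid plexus-like cells and tanycyte or pituicyte-like cells carried both genes too. Choroid plexus-like cells, which secrete cerebrospinal fluid, had 329 CPM of Sox9 (281 to 384) and 99.2 CPM of Sox2 (73.6 to 131), and 105 of these 122 cells came from library 9. Sox9 was 2.66-fold higher there than in all other cells on CPM + 10, and 2.24% of genes reached 2-fold. Tanycyte or pituicyte-like cells, glia of the hypothalamic floor and posterior pituitary, had 236 CPM of Sox9 (202 to 274) and 136 CPM of Sox2 (110.4 to 165), and of these 781 cells 281, 249 and 226 lay in libraries 4, 5 and 6. No member was 2-fold higher there than in all other cells, as 1.38% of genes were. In both classes Sox9 and Sox2 were above the level of endothelial-like cells, at 16.0 and 5.68 CPM.

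Neuron-like cells held little Sox2, except in 1 of their 3 clusters. The class had 15.5 CPM over all libraries, with 3.97 CPM in library 3 (1.82 to 7.54) and 81.6 CPM in library 4 (52.8 to 120.4). The cluster led by Gad1, the GABA-synthesizing enzyme, had 53.0 CPM, and those led by Slc17a7 and Nrgn, genes of cortical excitatory neurons, had 5.51 and 1.54 CPM. Gad1-led cells made up 89.1% to 98.9% of the neuron-like cells of libraries 4 to 9, whereas in libraries 1 to 3 one of the other clusters was the largest. Within the Gad1-led cluster Sox2 ran from 13.7 CPM in library 7 (1.65 to 49.4) to 86.5 CPM in library 4 (55.4 to 129).

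Sox4 had at least 1 UMI in 10 of the 11 listed types, but in 4 of them (macrophages, glutamatergic neurons, Neuron Other and VSMCA) a single one, which cannot be told apart from background RNA. Among listed types with more than 10 of its UMIs, EPC had 64.6 CPM (32.2 to 115.5) and microglia 63.1 CPM (43.1 to 89.1), and these did not differ beyond their intervals. The highest level, 115 CPM (55.4 to 212), rested on 10 UMIs in the 43 cells listed as oligodendrocytes. Their label was at odds with most of its markers. Among the oligodendrocyte markers Mag, Mobp and Ermn were at 0 (3 UMIs would be 34.6 CPM), the myelin gene Mbp had 1 UMI, and Mal was at 69.3 CPM (25.4 to 151), whereas Cldn11 was at 727 CPM (559 to 930). None of 6 fibroblast or leptomeningeal markers was at 0, and 38 of the cells lay in the fibroblast or leptomeningeal-like cluster. The fibroblast or leptomeningeal-like cells of all libraries had 70.5 CPM of Sox4 (54.7 to 89.3). Endothelial cells (13.9 CPM) and VSMCA (3.25 CPM) were at the low end. Sox4 was at least 2-fold higher than in the other listed cells in microglia, at 2.01-fold (8.62% of genes), and in listed oligodendrocytes, at 3.03-fold (5.88% of genes).

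The summed level of Sox4 was higher in microglia-like than in macrophage-like cells. Microglia-like cells had 71.0 CPM of Sox4 (59.8 to 83.8, 140 UMIs) and macrophage-like cells 8.80 CPM (5 UMIs), a ratio of 8.07 (3.38 to 25.3). Microglia-like cells were higher in all 5 libraries with at least 50 cells of each, and the interval of the ratio lay above 1 in libraries 7, 8 and 9. Their Sox4 level ran from 61.8 CPM in library 7 (46.4 to 80.6) to 146 CPM in library 3 (63.1 to 288), with overlapping intervals. Against all other cells no member was 2-fold higher in microglia-like (6.48% of genes), macrophage-like (5.26%), fibroblast or leptomeningeal-like (4.52%), pericyte-like (3.76%), VSMCA-like (3.88%), HbVC-like (0.184%) or pituitary endocrine-like cells (1.78%).

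The highest Sox4 of any class was in pituitary stem or folliculostellate-like cells, the progenitor and support cells of the anterior lobe. They had 421 CPM (382 to 462) and a Sox4 UMI in 56.5% of 382 cells, or 17.1% at 500 UMIs per cell. Pituitary endocrine-like cells had 113 CPM (100.7 to 127), which made the stem-like level 3.71-fold higher (3.20 to 4.32). The ratio was 4.28 in library 4 and 3.85 in library 6, the libraries that held at least 50 cells of both. The stem-like cells also had Sox2 at 265 CPM (235 to 298), Sox9 at 226 CPM (198 to 257) and Sox11 at 78.8 CPM (62.7 to 97.8). Sox4, Sox2 and Sox11 were 7.65-fold, 3.34-fold and 2.43-fold higher there than in all other cells on CPM + 10, and a 2-fold difference held for 4.56% of 15739 genes with at least 20 UMIs. Sox2 fell off more steeply toward endocrine-like cells than Sox4, at 14.5-fold (10.6 to 20.3), and Sox9 did so at 24.2-fold (15.9 to 38.6). The totals behind these folds include hormone UMIs, and more hormone RNA in a class lowers its CPM of every other gene. Totals without hormone genes were not tried for these classes.

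**Figure D4:**
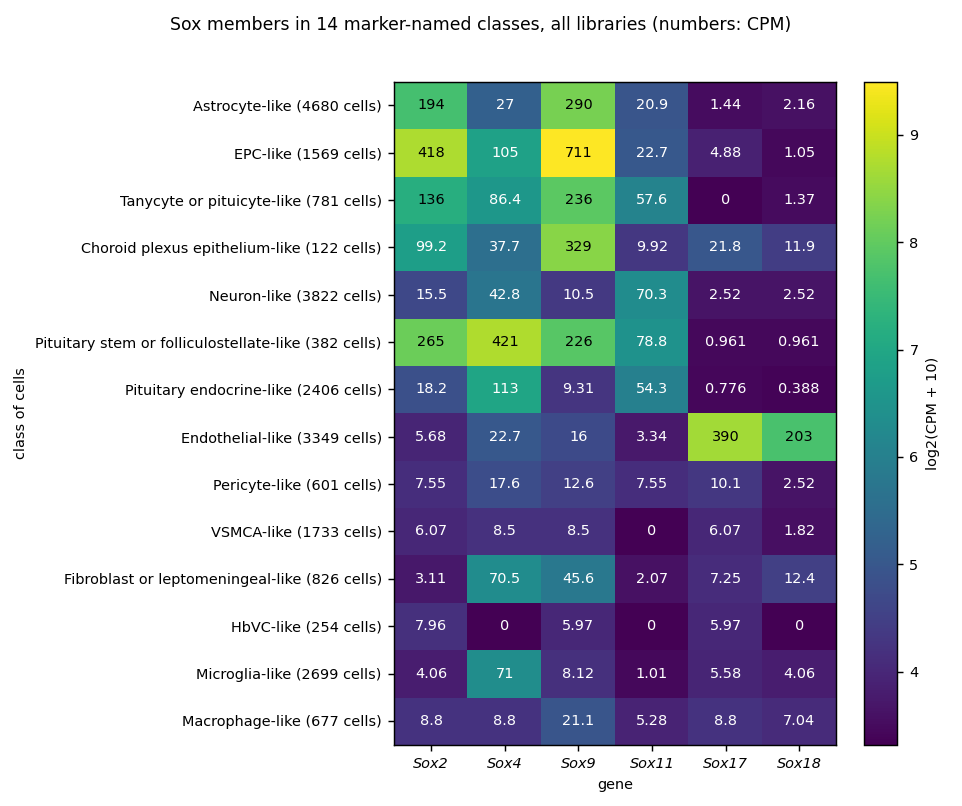
CPM of each Sox gene (columns) in the 14 marker-named classes over all libraries (rows, with cell numbers), coloured by log2(CPM + 10). Sox2 and Sox9 peak in EPC-like cells, Sox17 and Sox18 in endothelial-like cells, and Sox4 at 421 CPM in pituitary stem or folliculostellate-like cells. Astrocyte-like, choroid plexus-like and pituitary stem or folliculostellate-like cells carry both Sox2 and Sox9 too.

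By library, Sox4 was at 33.5, 42.9, 35.7, 92.8, 66.4, 107, 30.4, 40.1 and 43.1 CPM in the order 1 to 9. Libraries 6 and 4 were highest with overlapping intervals, library 5 came next, and the remaining 6 overlapped neighbour by neighbour. Library 6 was 3.54-fold above library 7 (2.93 to 4.30). Pituitary stem or folliculostellate-like cells held 46.9% and endocrine-like cells 24.6% of the Sox4 UMIs of library 6. Neither class had a cell in library 7, where microglia-like cells held 54 of 135.

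Sox11, the other SoxC gene, was the rarest of the 6 in the brainstem NS library, with 20 UMIs in 3731 cells. Of the 11 in listed cells, 6 lay in the 18 cells named Neuron Other (204 CPM, 74.8 to 443), 3 in astrocytes and 2 in EPC. The 55 glutamatergic neurons had no Sox11 UMI, and 3 would be 57.2 CPM, so that both listed neuron types together had 73.3 CPM (26.9 to 159). The 130 neuron-like cells of the library, which take in most of both types, had 46.5 CPM (18.7 to 95.7), an interval that overlaps that of Neuron Other. With fewer than 20 UMIs in listed cells, Sox11 was below the count set for the fold comparison.

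Over all libraries Sox11 was highest in pituitary stem or folliculostellate-like and neuron-like cells, whose intervals overlapped. Neuron-like cells had 70.3 CPM (63.2 to 77.9) and held 40.8% of its UMIs, pituitary endocrine-like cells had 54.3 CPM (45.7 to 64.1) and tanycyte or pituicyte-like cells 57.6 CPM (41.5 to 77.9). The 2 unnamed clusters led by Gh, which are not in the endocrine-like class, had 19.1 CPM (14.8 to 24.3) and 20.6 CPM (12.9 to 31.1). Astrocyte-like cells had 20.9 CPM, 3.37-fold below neuron-like cells (2.55 to 4.52), and the neuron-like value was higher in all 8 libraries with both, with the interval above 1 in 5. No Sox11 UMI was found in VSMCA-like or HbVC-like cells. Within neuron-like cells Sox11 was lowest in library 1 at 27.5 CPM (16.5 to 42.9), had a median of 78.3 CPM and was highest in library 6 at 119.8 CPM (74.2 to 183). The neuron-like cells of library 1 came mainly from the Slc17a7-led cluster and those of library 6 from the Gad1-led one. In the Slc17a7-led cluster alone, library 1 was at 33.2 CPM (16.6 to 59.4) and libraries 2 and 3 at 92.4 CPM (67.1 to 124) and 84.9 CPM (59.1 to 118). Sox11 was at least 2-fold higher in neuron-like than in all other cells, as were 19.9% of genes.

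Summed over all cells, Sox11 was at 22.3, 52.2, 46.8, 44.6, 33.9, 41.2, 4.50, 10.5 and 10.7 CPM in libraries 1 to 9. Libraries 7, 8 and 9 were lowest and library 7 lay below both of the others without overlap. Library 2 was 11.6-fold above library 7 (7.14 to 19.8), and neuron-like cells made up 48.4% of the UMIs of library 2 and 3.39% of those of library 7.

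Whether the SoxC pair was found in the same cells was read in 4 sets of cells. In pituitary stem or folliculostellate-like cells at 500 UMIs, 4 of 12 Sox11-positive cells (33.3%, 9.92% to 65.1%) and 16.6% (12.9% to 20.8%) of the rest had a Sox4 UMI, and in library 6 alone 1 of 9 and 18.0% did. Without thinning the shares were 68.1% (56.0% to 78.6%) of 72 and 53.9% (48.1% to 59.5%), and both pairs of intervals overlapped. In pituitary endocrine-like cells at 500 UMIs, 8 of 63 Sox11-positive cells (12.7%, 5.65% to 23.5%) and 5.53% (4.61% to 6.56%) of the rest had a Sox4 UMI. In neuron-like cells 0 of 109 Sox11-positive cells did (0% to 3.33%, with 3 cells being 2.75%), and 2.46% (1.94% to 3.07%) of the rest did. The intervals overlapped in both classes. Without thinning the endocrine-like shares were 17.1% (11.0% to 24.7%) and 10.3% (9.10% to 11.6%), with the Sox11-positive cells higher in each of libraries 4, 5 and 6 and overlapping intervals. In the unnamed clusters led by Gh they did not, with Sox4 in 3 of 36 Sox11-positive cells (8.33%, 1.75% to 22.5%) and in 0.933% (0.630% to 1.33%) of the rest. That rested on 3 cells, and the intervals overlapped within each of libraries 4, 5 and 6, and without thinning, where the shares were 4.76% (1.31% to 11.7%) and 1.90% (1.46% to 2.42%). Without thinning, 7.43% of 323 Sox11-positive and 5.26% of the other neuron-like cells had a Sox4 UMI.

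The SoxF genes were endothelial. In the brainstem NS library 299 of 314 Sox17 UMIs of listed cells lay in the 573 endothelial cells, at 461 CPM (410.3 to 516), against 9.37 CPM in the other listed cells, a ratio of 49.2 (29.4 to 89.0). For Sox18, 120 of 130 UMIs were endothelial, at 185 CPM (153 to 221) against 6.25 CPM, a ratio of 29.6 (15.6 to 63.3). No UMI of either gene was found in the 168 pericytes, where 3 UMIs would be 20.3 CPM, although pericytes line the same vessels. Of these pericytes, 48 lay in the fibroblast or leptomeningeal-like cluster. The 601 pericyte-like cells of all libraries held 4 Sox17 UMIs (10.1 CPM, 2.74 to 25.8) and 1 Sox18 UMI (2.52 CPM). HbVC had 3 Sox17 UMIs (68.2 CPM, 14.1 to 199), and 13 of these 19 cells lay in an endothelial-like cluster. Glutamatergic neurons had 3 Sox18 UMIs (57.2 CPM, 11.8 to 167). A Sox17 UMI was seen in 36.0% of endothelial cells and 1.05% of the others, or 20.4% and 0.496% at 500 UMIs per cell, and the median depths were 910 and 902 UMIs. For Sox18 the thinned shares were 9.47% and 0.142%. Sox17 was 24.3-fold and Sox18 12.0-fold higher than in the other listed cells on CPM + 10, and 9.89% of genes reached 2-fold.

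Endothelial-like cells of all libraries held 75.7% of Sox17 UMIs (390.5 CPM, 368 to 414) and 75.8% of Sox18 UMIs (203 CPM, 187 to 219.6). Most of the others lay in unnamed clusters not led by Gh (18.7% and 16.6%), several of which carried endothelial markers beside those of another type. Astrocyte-like cells had 1.44 and 2.16 CPM. Sox17 and Sox18 were higher in endothelial-like than in astrocyte-like cells in all 8 libraries with both, with the interval of the ratio above 1 in each.

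Sox17 was lower and Sox4 higher in a cluster of 181 endothelial-like cells led by Plvap, the protein of the diaphragms of fenestrated capillaries, than in the other endothelial-like cells. There Sox17 was at 64.7 CPM (32.3 to 116) and at 410.1 CPM (387 to 434) in the other 3168 endothelial-like cells, which put the others 6.34-fold higher (3.53 to 12.7). Sox18 was at 299.8 CPM (223 to 394) in the Plvap-led cells and 197 CPM (181 to 214) in the others, 1.52-fold higher in the Plvap-led cells (1.12 to 2.03). Sox4 was at 165 CPM (109 to 238) against 14.2 CPM (10.1 to 19.3), 11.6-fold higher (6.90 to 19.3). These folds set cells of a few libraries against cells of all of them. Within libraries 4 to 6, which hold 180 of the 181 Plvap-led cells, the 277 other endothelial-like cells had 57.9 CPM of Sox4 (27.8 to 106), and the Plvap-led cells were 2.85-fold higher (1.34 to 6.58). Sox17 there was 5.89-fold higher in the other cells (2.99 to 12.9), close to the pooled value. In library 6 alone, with 26 other cells, both intervals spanned 1, at 1.85-fold for Sox4 (0.394 to 17.3) and 2.16-fold for Sox17 (0.430 to 10.1), and the 19 Plvap-led cells of library 5 had no UMI of either gene. For Sox18 the Plvap-led cells were at 1.31 times the others, with an interval of 0.842 to 2.04 that spans 1, and in library 6 alone their 225 CPM lay below the 261 CPM of the other cells (ratio 0.862, 0.311 to 2.74). The depth of the 2 sets was alike, at medians of 775 and 763 UMIs per cell, and at 500 UMIs 3.80% and 17.5% of the cells had a Sox17 UMI, 13.3% and 9.50% a Sox18 UMI, and 7.59% and 0.641% a Sox4 UMI. Libraries 4, 5 and 6 held 103, 19 and 58 of the Plvap-led cells, and in both libraries with at least 50 such cells the intervals overlapped, with Sox17 at 51.5 and 80.5 CPM. The cluster was chosen after its values were seen. Its endothelial markers Flt1, Pecam1, Cdh5 and Esam passed the naming rule, and Cldn5, Ly6c1, Itm2a and Slco1a4 did not.

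**Figure D5:**
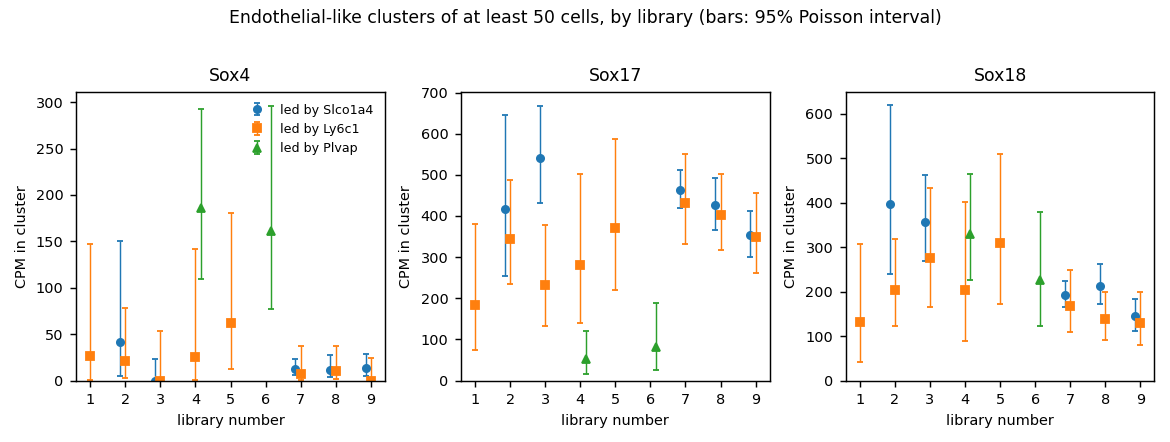
CPM of Sox4, Sox17 and Sox18 (vertical axis) in the 3 endothelial-like clusters, named by their leading gene, in libraries with at least 50 cells of the cluster (horizontal axis), with 95% Poisson intervals. The Plvap-led cells of libraries 4 and 6 are high in Sox4 and low in Sox17 and lie within the range of the other clusters for Sox18.

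Within endothelial-like cells Sox17 was lowest in libraries 6 and 4, at 106 CPM (48.4 to 201) and 186 CPM (126 to 263), had a median of 353 CPM and was highest in library 7 at 458 CPM (417 to 502). Plvap-led cells made up 69.0% and 52.6% of the class in libraries 6 and 4 and at most 10.7% elsewhere. Library 1, the next lowest at 211 CPM (105 to 377), had no Plvap-led cell. Without them Sox17 in library 4 was at 371 CPM (242 to 544), and library 6 kept 26 cells with 4 Sox17 UMIs. Sox18 ran from 141 CPM in library 9 (113 to 174) to 332 CPM in library 3 (261 to 416). Libraries 7, 8 and 9 held the 3 lowest Sox18 values and library 1 the next.

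Summed over all cells, Sox17 was at 13.1, 37.7, 39.2, 9.58, 17.9, 2.73, 120.1, 93.5 and 74.0 CPM in libraries 1 to 9, and Sox18 at 13.1, 29.5, 28.6, 14.9, 11.8, 4.19, 48.8, 42.1 and 30.8 CPM. Library 7 was highest and library 6 lowest for both, 44.0-fold apart for Sox17 (26.4 to 79.1) and 11.6-fold apart for Sox18 (7.56 to 18.8). For Sox17 the intervals of libraries 7, 8 and 9 did not overlap one another. For Sox18 those of libraries 7 and 8 and of libraries 8 and 9 overlapped, and those of library 7 (42.5 to 55.8) and library 9 (26.0 to 36.1) did not. Endothelial-like cells made up 22.5% of the UMIs of library 7 and 1.55% of those of library 6.

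Within endothelial-like cells thinned to 500 UMIs, Sox18 was found in 10.4% (7.81% to 13.5%) of the 470 cells with a Sox17 UMI and in 9.56% (8.40% to 10.8%) of the 2342 without one. The listed endothelial cells gave 10.3% and 9.25%. Both pairs of intervals overlapped. Without thinning the endothelial-like shares were 20.4% (17.8% to 23.3%) and 13.98% (12.6% to 15.4%), which did not overlap. For Sox9 and Sox17, genes of different lineages, Sox17 was found in 2 of 19 Sox9-positive endothelial-like cells at 500 UMIs (10.5%, 1.30% to 33.1%) and in 16.8% (15.4% to 18.2%) of the rest, and without thinning in 26.7% (14.6% to 41.9%) and 25.8% (24.4% to 27.4%). These intervals overlapped. In astrocyte-like cells Sox17 was too rare for such a comparison, with a UMI in 0 of 321 Sox9-positive and 1 of 2210 other cells at 500 UMIs.

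The genes whose levels were most like those of each Sox gene were found over 74 sums of a class within a library, as Pearson's r of log2(CPM + 10) among 11235 genes with at least 200 UMIs. Sums of one library share its depth, and the values are descriptions with no test. Sox17 was most like Tek, the angiopoietin receptor (r = 0.95), followed by Foxq1, Nostrin, Cyyr1 and Sema3g (0.94 to 0.93). Sox18 was most like AU021092 (0.92), Nostrin, Cyyr1, Kdr, the main VEGF receptor, and Kank3 (0.92 to 0.91). Sox2 was most like Id4, an inhibitor of differentiation factors (0.87), with Arhgef26, Rfx4, Plekhb1 and Plcd4 after it. Sox9 was most like Ccdc190 and Ddr1, a collagen receptor (both 0.87), with A330048O09Rik, Rfx4 and Tmem47 after them, so that Rfx4 was named for both genes. Sox11 was most like Bex2 (0.86), Zdbf2, Bex1, Gdap1 and Nap1l5. Sox4 had the weakest likeness, at 0.68 with H2afy and 0.67 with Vcp, followed by Tmem106c, Manf and Mlec. Among the 6 genes themselves r was 0.90 for Sox17 with Sox18, 0.85 for Sox2 with Sox9, 0.55 for Sox2 with Sox11 and 0.42 for Sox4 with Sox11, and from -0.31 to -0.11 for the SoxF genes with the other 4.

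The rest of the family was sparse. Of 14 other Sox genes on the list, 13 had a row and 8 had at least 100 UMIs, and the other 5 had at most 32. Sox1 and Sox21, SoxB genes like Sox2, were highest in EPC-like cells, at 86.1 CPM (75.7 to 97.6) and 52.0 CPM (44.0 to 61.0), and next in astrocyte-like cells. Sox8, a SoxE gene like Sox9, was highest in astrocyte-like cells at 96.8 CPM (85.6 to 109). Sox7, the remaining SoxF gene, was highest in endothelial-like cells at 30.1 CPM (24.2 to 37.0), and Sox12, the remaining SoxC gene, in neuron-like cells at 19.8 CPM (16.1 to 24.0). Sox5, Sox6 and Sox13 form SoxD. Sox13 was highest in endothelial-like cells at 32.4 CPM, Sox5 in VSMCA-like cells at 46.2 CPM and Sox6 in EPC-like cells at 52.7 CPM, the last 2 with overlapping intervals in the next class. Sox10 had 6 UMIs in all cells.

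Transcription factors that share these lineages were read from 4 lists, as the class against all other cells on CPM + 10. For endothelial-like cells 16 of 20 were at least 2-fold higher, a background of 6.51%, with a median fold of 6.21 against 0.903 over all genes. Klf2, a flow-responsive factor, was at 1846 CPM (1798 to 1895) and Epas1 at 843 CPM, with Mecom and Ebf1 after them. For astrocyte-like cells 9 of 16 were at least 2-fold higher (background 5.43%, median fold 2.65), among them Id4 at 494 CPM and Id3 at 486 CPM, while Nfia at 514 CPM and Zbtb20 at 506 CPM were the most abundant and were 1.85-fold and 1.13-fold higher. For neuron-like cells 11 of 15 were (background 19.9%, median fold 5.45), with Mef2c at 1356 CPM, Myt1l, Bcl11a and Tbr1 the most abundant. For pituitary endocrine-like cells 7 of the 9 with enough UMIs were (background 1.78%, median fold 3.86), with Pou1f1 at 177 CPM, Pitx1 and Lhx3 among the most abundant. Pou1f1 and Pitx1 were also markers by which these clusters were named, and naming asked for a 2-fold higher level. They are therefore no independent part of that count. Beside the listed factors, Sox17 and Sox18 were 17.3-fold and 12.7-fold higher in endothelial-like cells and Sox11 was 2.67-fold higher in neuron-like cells on the same scale.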

How the data were processed

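The deposited file is a single matrix of whole UMI counts, with genes as rows and all cells of the series as columns, which the authors made with Cell Ranger 2.2.0 on GRCm38 per the labels and not normalized (R 3.5.3 is also named in the submitters' processing notes; the annotation release is not given in the sources used here). All 29571 cells were used, each with 263 or more UMIs. The cell type list of the study was held in part, for 1999 cells, all in library 7; at most 13 of its barcodes occur in any other library.

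Levels were summed UMIs per 1000000 with exact Poisson intervals, and shares were given with exact Clopper-Pearson intervals (95%). Ratios carry exact conditional intervals. A count of 0 is read against 3 counts. Counts per cell were scaled to 10000 and log-transformed, and 2000 variable genes without Sox genes, 13 principal components, 20 neighbours and Leiden resolution 1 (leidenalg 0.10.2, Python 3.11.15) gave 30 clusters. A cluster took a name from at least 3 markers that were 2-fold higher and in at least 10% of cells, unless 60% of another type's markers passed too, a limit set after first clusters were seen. The 9 unnamed clusters hold 5670 cells, 3402 of them in 2 clusters led by Gh. Scrublet (scanpy 1.11.5) marked 143 cells (0.484%), under the share at which the caller is taken to have worked, so that all cells were kept. Shares were also taken after thinning to 500 UMIs, leaving out shallower cells.

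The genes named were the 6 members, other Sox genes with at least 100 UMIs, the 5 genes most like each member, and the 4 genes with the most UMIs of each list. One of these genes, one marker and one sequence are not reported here. The members and lists were chosen with earlier results of these data known. The planned comparison of sleep groups was not made. The scripts were tested on simulated data. RefSeq promoters (GRCm38.p6) matched 3 of the 6 genes and were not used; coding sequences came from GENCODE.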

Additional observations from a re-analysis of the deposited data

How the results depend on the processing

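No paired analysis was possible because each group has a single library and the columns do not name the groups. Of the values that answer a comparison, 81 of 99 under an alternative stayed within the main 95% interval, and of the other values 1824 of 2014 did. With only cells of at least 1000 UMIs, the ratio of the highest to the lowest library became 8.70 for Sox2 and 10.6 for Sox9, and Sox18 in endothelial-like cells was at 184 CPM. As a mean of the CPM of single cells the ratios were 1.48 for Sox2 and 1.88 for Sox9. With totals that leave out mitochondrial, hemoglobin and pituitary hormone genes, the ratio for Sox4 was 5.04. With marker-named clusters in place of listed types, Sox2 in EPC was at 442 CPM and Sox11 in Neuron Other at 46.5 CPM, while listed oligodendrocytes had no such class. Without thinning, Sox2 was found in 49.7% of Sox9-positive EPC-like and 55.6% of Sox9-positive pituitary stem or folliculostellate-like cells, Sox18 in 20.4% of Sox17-positive endothelial-like cells and Sox4 in 7.43% of Sox11-positive neuron-like and 68.1% of Sox11-positive pituitary stem or folliculostellate-like cells. Thinned and unthinned, the order of the share in positive cells and in the rest was opposite in 4 of 14 comparisons, which were Sox4 with Sox11 in neuron-like cells, Sox2 with Sox9 in listed EPC, and Sox17 with Sox9 in astrocyte-like and endothelial-like cells. The causes were not tested, except that a deeper cell has more UMIs to find. The comparison within libraries, and the alternatives without the Plvap-led cluster and without cells whose barcode occurs in several libraries, were added after the data were seen. The ratio of Plvap-led to other endothelial-like cells became 2.85 for Sox4 within libraries 4 to 6, 3.25 within library 4 and 1.85 within library 6, and within library 6 it was 0.462 for Sox17 and reversed to 0.862 for Sox18, with intervals in library 6 that span 1 for all 3 genes. Leaving out cells with a barcode in several libraries moved 0 of 18 values that answer a comparison. The alternative without the Plvap-led cluster was run for 2 such values and moved neither. Other values changed with it. Sox4 in endothelial-like cells was at 14.2 CPM in place of 22.7 CPM. In library 4 alone, Sox17 in these cells was at 371 CPM (242 to 544) in place of 186 CPM. The alternative without cells called doublets says nothing about doublets, since so few cells were marked. With 1 library per region and group and a median of 806 UMIs per cell, single-cell overlap of 2 genes and levels in the smallest listed types are poorly determined, and differences between libraries cannot be told apart from differences between pools.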
